A study of Mus musculus with 15 samples.

Results

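The Ikaros family is a set of zinc finger transcription factors of blood cells, and its 5 mouse genes, *Ikzf1* (Ikaros), *Ikzf2* (Helios), *Ikzf3* (Aiolos), *Ikzf4* (Eos) and *Ikzf5* (Pegasus), are all among the 12545 genes of an expression table of mouse T cell leukemia lines. The genes were chosen by family name and by their measured level in each line, since *Ikzf1* mRNA was known to be nearly missing from single lines. The question was whether the other members are low in the same lines. The levels in each line are therefore a description, given without a test.

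Ikaros proteins bind DNA through a group of zinc fingers near the amino end and pair with each other through a further group at the carboxy end, so that members can form mixed dimers. Ikaros and Aiolos are known in lymphocytes as partners of the nucleosome remodeling and deacetylase complex, and Ikaros limits the response of thymocytes to Notch. Loss of Ikaros, or short forms that lack the DNA-binding fingers, is a known event in T cell leukemia of mice. Helios and Eos are best known from regulatory T cells, and Pegasus is the most distant member.

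Gene expression was measured by sequencing of total RNA from 15 leukemia lines grown from the thymus of sick FVB/NJ mice, with 1 library per line and no treatment. The 8 DKO lines carry the genotype E2a-/-LefF/F LckCre+, in which Cre under the *Lck* promoter acts on a floxed *Lef1* in developing T cells, and the 7 other lines are labelled E2a-/- alone. All 15 lines thus lack E2a, which encodes E protein transcription factors, and the labels give no age. Each line was grown in culture, so a value describes a line and not the leukemia of the animal it came from.

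Values are in CPM, in which the reads of a gene are scaled by all reads that were assigned to a gene in its library. The DKO lines had 4847970 to 21377352 reads on the listed genes (median 18908120), and the E2a-/- lines had 14477802 to 21681586 (median 18584597). The smallest amount told apart from 0, taken as 3 reads, was 0.138 CPM in the deepest line, SKO95, and 0.618 CPM in the shallowest, DKO79.9. Intervals are exact 95% Poisson intervals and cover counting error only, since the reads carry no molecular identifiers.

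Several libraries stand apart. The E2a-/- line SKO132 had 59.0 CPM of *Lef1*, against 668 to 1558 CPM in the other E2a-/- lines and 103 to 210.2 CPM in the DKO lines, and 31.3 CPM of *Notch1*, against 830.1 CPM or more in each other line. The DKO line DKO170.2 was the lowest of the 15 lines for 20.6% and the highest for 15.9% of 11228 genes that average 1 CPM or more and have 3 or more reads in at least 10 lines, so it was at an extreme more often than any other line (SKO132, the next, was lowest for 9.60% and highest for 14.9%). The DKO line DKO79.9 had the fewest reads. The E2a-/- lines SKO156.6 and SKO186.5 were the most alike pair, with a Spearman rho of 0.987 over genes, and were counted as separate lines because the labels list them so.

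T-lineage identity was checked against 17 marker genes, all of which are in the table with reads in each of the 15 lines. Their summed level ran from 4593 CPM in SKO132 to 8809 CPM in DKO241. *Tcf7*, a transcription factor of early T cells, was the most abundant and ran from 799.8 CPM in SKO95 to 3624 CPM in DKO241. *Rag1*, a subunit of the recombinase of antigen receptor genes, ran from 206 to 2228 CPM. The surface protein *Thy1* ran from 562 to 1342 CPM and the kinase *Lck* from 319.5 to 1261 CPM, the lowest in SKO132. Other markers, named after their values were seen, were far lower in some lines. SKO132 had 47.0 CPM of *Cd3d*, against 289.9 CPM or more elsewhere, 0.165 CPM each of *Ptcra* and *Rag2*, and 0.496 CPM of *Cd2*. *Cd8a* ran from 0.230 CPM in SKO95 to 299 CPM in DKOTu3, and *Cd5* from 0.142 to 21.2 CPM. Markers of other blood cells were mostly not listed or low, as given with the gene lists further on.

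*Ikzf1* mRNA was nearly missing from 3 lines and reduced in a further line, while every other line had at least 252 CPM. *Ikzf1* (ENSMUSG00000018654) encodes Ikaros, the founding member, and lies on chromosome 11 from 11585006 to 11672929 in the table's own coordinates. DKO170.2 had 2 reads of it, or 0.128 CPM (95% interval 0.0155 to 0.461), which is under the amount told apart from 0 in that line. DKO102.4 had 2.98 CPM from 61 reads (2.28 to 3.83), and SKO132 had 3.86 CPM from 70 reads (3.01 to 4.88). These 3 lines include both genotypes. The next line up, DKO192.3, had 80.6 CPM from 1725 reads (76.9 to 84.5), which lies 20.9-fold above SKO132 and 3.12-fold below the next line, SKO95. As a share of the median over the 15 lines, which was 589 CPM in DKO713, the levels were 0.0217% in DKO170.2, 0.506% in DKO102.4, 0.655% in SKO132 and 13.7% in DKO192.3.

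The remaining 11 lines all expressed *Ikzf1* strongly. The DKO lines among them had 280.5 CPM in DKO548, 325 CPM in DKO79.9, 589 CPM in DKO713, 648 CPM in DKOTu3 and 1257 CPM in DKO241. The E2a-/- lines among them had 252 CPM in SKO95, 635 CPM in SKO137.1, 658 CPM in SKO156.6, 724 CPM in SKO186.5, 750.0 CPM in SKO115.2 and 847 CPM in SKO163.5. Of the 14 pairs of neighbours in the order of the lines, 3 had overlapping counting intervals, among them DKO102.4 and SKO132. On the scale of log2(CPM + 1), the SD of *Ikzf1* over the 15 lines was 3.25, which is at percentile 99.95 of all genes of the table. In a bulk library, fewer cells that express the gene and less RNA per cell cannot be told apart. The table holds 1 value per gene, so short forms of Ikaros and transcripts that lack exons cannot be told apart from the whole mRNA either.

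The other members did not share one order with *Ikzf1*. In DKO170.2, the line with the least *Ikzf1*, *Ikzf2* was also at its lowest and *Ikzf3* and *Ikzf5* at their next to lowest of the 15 lines. DKO170.2 was also the lowest line for 20.6% of 11228 genes, and the part of this wide shift in the low values of the family was not tested. In DKO102.4, SKO132 and DKO192.3 the other 4 members ranged from rank 6 to rank 12 of 15, counted from the lowest, so none was among the lowest lines of its own gene. The line with the least *Ikzf3* was SKO95, which had 252 CPM of *Ikzf1*, rank 5 of 15 and 42.7% of the median over lines. SKO95 was also at rank 2 for *Ikzf2*, rank 1 for *Ikzf4* and rank 5 for *Ikzf5*. The rank of *Ikzf5* is not resolved, since its counting interval overlapped those of both neighbouring lines, and its level was 82.9% of the median over lines.

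**Figure D1:**
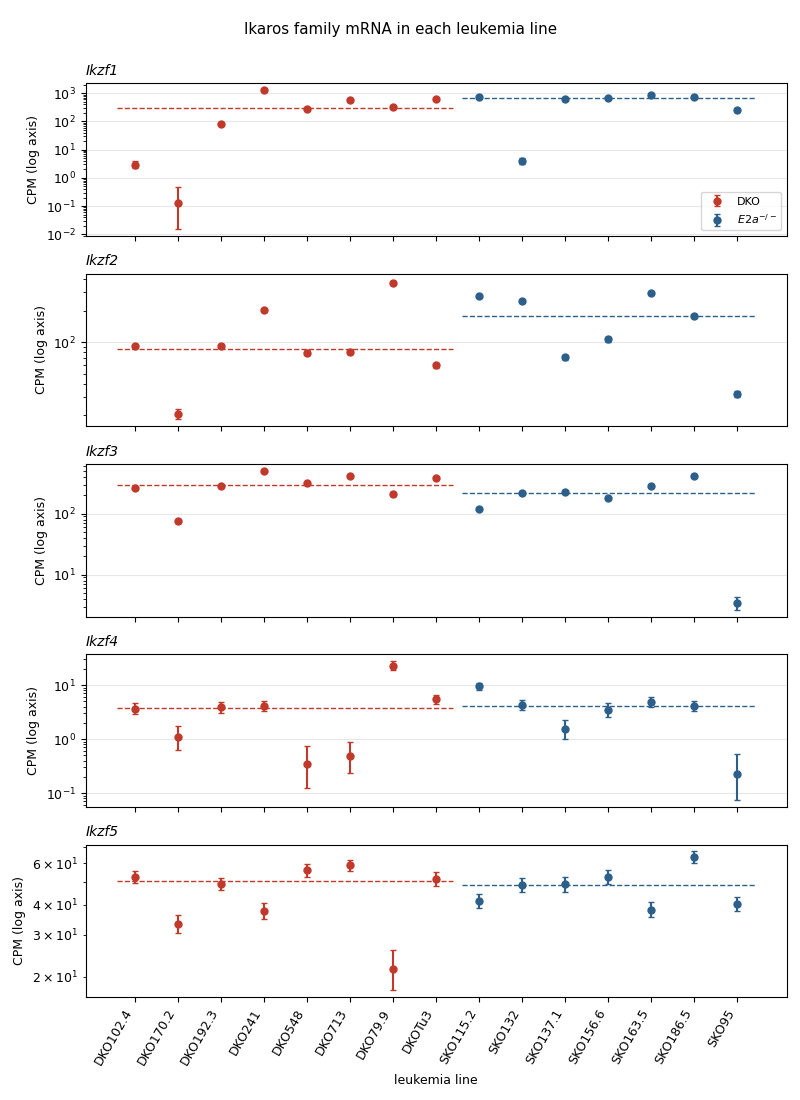
Level of each Ikaros family gene in CPM (log axis) in the 15 leukemia lines, with DKO lines in red and E2a-/- lines in blue; points are single libraries, bars are 95% Poisson intervals and dashed lines are group medians. *Ikzf1* drops to 0.128 CPM in DKO170.2, 2.98 CPM in DKO102.4 and 3.86 CPM in SKO132, and *Ikzf3* drops to 3.41 CPM in SKO95.

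*Ikzf2* (ENSMUSG00000025997, chromosome 1) encodes Helios, which is found in thymocytes and regulatory T cells. In the DKO lines it ran from 20.5 CPM in DKO170.2 (321 reads) through a median of 86.3 CPM to 372 CPM in DKO79.9. In the E2a-/- lines it ran from 32.0 CPM in SKO95 through a median of 177 CPM to 298 CPM in SKO163.5. The lines that were poor in *Ikzf1* had low, middle and fairly high values of *Ikzf2*, but none of the 3 highest. DKO102.4 and DKO192.3 had 91.8 CPM each, at or next to the median of the 15 lines, while SKO132 had 247 CPM, rank 12 of 15. *Ikzf2* in DKO170.2 was 22.3% of the median over lines, and the other line with a low value, SKO95, was at 34.8%.

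*Ikzf3* (ENSMUSG00000018168) encodes Aiolos, the closest relative of Ikaros in lymphocytes, and lies on the same chromosome as *Ikzf1*. In the DKO lines it ran from 74.5 CPM in DKO170.2 (1167 reads) through a median of 298 CPM to 492 CPM in DKO241. In the E2a-/- lines it ran from 3.41 CPM in SKO95 (74 reads, 2.68 to 4.28) through a median of 222 CPM to 418 CPM in SKO186.5. The gap between SKO95 and the next line, DKO170.2, was 21.8-fold, and *Ikzf3* in SKO95 was 1.28% of the median over lines. *Ikzf3* stayed well expressed where *Ikzf1* was low, with 266.0 CPM in DKO102.4, 285 CPM in DKO192.3 and 222 CPM in SKO132. In DKO170.2 it was at 28.0% of the median over lines.

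*Ikzf4* (ENSMUSG00000002578, chromosome 10) encodes Eos, a partner of *Foxp3* in regulatory T cells, and was the least abundant member. In the DKO lines it ran from 0.345 CPM in DKO548 (6 reads) through a median of 3.77 CPM to 23.1 CPM in DKO79.9 (112 reads, 19.0 to 27.8). In the E2a-/- lines it ran from 0.230 CPM in SKO95 (5 reads, 0.0748 to 0.538) through a median of 4.17 CPM to 9.54 CPM in SKO115.2. With so few reads, 11 of the 14 pairs of neighbouring lines had overlapping intervals, and the order in the middle of the range is not resolved. DKO102.4 had 3.67 CPM, DKO192.3 had 3.88 CPM and SKO132 had 4.30 CPM, all close to the median, and DKO170.2 had 1.08 CPM from 17 reads. DKO79.9, where *Ikzf4* and *Ikzf2* were both at their highest, is also the line with the fewest reads, and whether the depth had a part in this was not tested.

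*Ikzf5* (ENSMUSG00000040167, chromosome 7) encodes Pegasus and varied the least. In the DKO lines it ran from 21.4 CPM in DKO79.9 through a median of 50.2 CPM to 58.8 CPM in DKO713. In the E2a-/- lines it ran from 38.3 CPM in SKO163.5 through a median of 48.5 CPM to 63.7 CPM in SKO186.5. The highest line was 2.97-fold above the lowest, and 12 of the 14 pairs of neighbouring lines had overlapping intervals. Its SD over lines, 0.38 on the log2 scale, was at percentile 52.2 of all genes, against 89.2 for *Ikzf2*, 95.5 for *Ikzf3* and 88.7 for *Ikzf4*. DKO102.4, DKO192.3 and SKO132 had 52.5, 49.0 and 48.5 CPM of *Ikzf5*, and DKO170.2 had 33.4 CPM.

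The level of *Ikzf5* carries a doubt that the other members do not. In the GENCODE annotation of GRCm38, the merged exons of *Ikzf5* share 4652 bases, or 81.3% of their length, with exons of *Pstk*, a gene on the opposite strand that encodes a kinase of selenocysteine synthesis. *Pstk* is in the table at 13.6 to 37.8 CPM (median 19.8 CPM). The strand used in counting is not stated, so it is not known how reads from the shared bases were assigned. *Ikzf1* and *Ikzf3* share no exonic base with another gene, *Ikzf2* shares 1.24% of its exons and *Ikzf4* shares 0.617%.

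Levels of different genes were compared as CPM per kb of merged exon, a scale on which *Ikzf1* was the most abundant member in 11 of the 15 lines. The median over lines was 102.0 CPM per kb for *Ikzf1*, 30.4 for *Ikzf3*, 8.53 for *Ikzf5*, 7.91 for *Ikzf2* and 0.647 for *Ikzf4*. Summed over the 5 genes, the family ran from 16.3 CPM per kb in DKO170.2 to 298.6 CPM per kb in DKO241, with a median of 151. *Ikzf1* made up 62.6% of this sum in the median line, and from 0.135% in DKO170.2 to 81.0% in SKO95. *Ikzf3* was the most abundant member in the other 4 lines, DKO102.4, DKO170.2, DKO192.3 and SKO132. In these lines *Ikzf3* took 62.5%, 52.2%, 51.1% and 44.9% of the family sum.

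A larger share of *Ikzf3* was not a larger amount of *Ikzf3*. On the per kb scale *Ikzf3* was at 30.4 in DKO102.4, 32.5 in DKO192.3 and 25.4 in SKO132, next to its median over lines, and at 8.51 in DKO170.2. The family sum in these lines was 48.6, 63.6, 56.6 and 16.3 CPM per kb, all under the median of 151. SKO95, which had little *Ikzf3*, also had a low family sum, 53.8 CPM per kb. SKO132 had the largest share of *Ikzf2*, 37.7% of the sum. The per kb values depend on which transcripts are taken: with the length of the longest transcript *Ikzf1* was the highest member in 10 lines and *Ikzf3* in 5, and with the median transcript length, *Ikzf1* was the highest in 11, *Ikzf3* in 2 and another member in 2 (*Ikzf5* in DKO170.2, *Ikzf2* in SKO132).

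**Figure D2:**
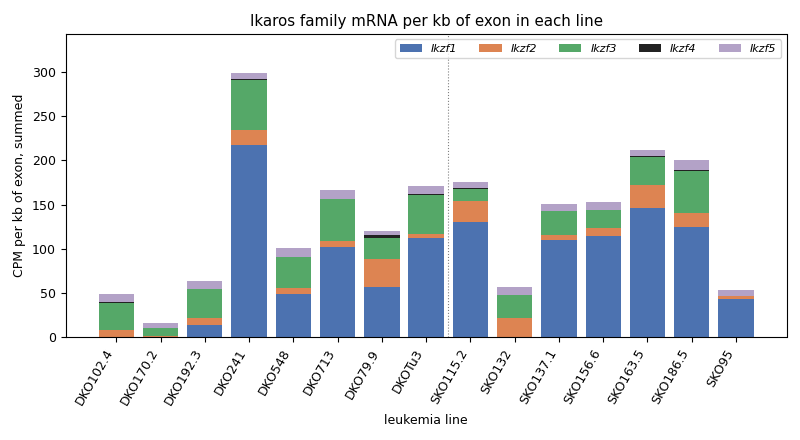
CPM per kb of merged exon of the 5 Ikaros family genes, stacked for each leukemia line, with DKO lines left of the dotted line and E2a-/- lines right of it. The *Ikzf1* segment is too thin to see in DKO102.4, DKO170.2 and SKO132, and the sum is lowest in DKO170.2, at 16.3, and highest in DKO241, at 298.6.

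Correlations over the 15 lines were taken on log2(CPM + 1), as a description of how far the other members followed *Ikzf1*, and 10 pairs of members were computed. Each point is 1 library, and all values of a library share its total. *Ikzf2* had a Pearson r of 0.36 with *Ikzf1* (Spearman rho 0.46), but r was 0.60 over the 8 DKO lines and -0.13 over the 7 E2a-/- lines. It was -0.07 without DKO102.4 and DKO170.2, the lines farthest from the median of *Ikzf1*, 0.03 without DKO170.2 alone and 0.55 without SKO132. The relation of *Ikzf2* with *Ikzf1* over all lines thus depends on single lines.

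*Ikzf3* had an r of 0.18 with *Ikzf1* (rho 0.40) over the 15 lines. Over the 8 DKO lines r was 0.82, and over the 7 E2a-/- lines, which include SKO95, it was 0.05. Without DKO102.4 and DKO170.2 it was 0.12, without DKO170.2 alone 0.05, and without SKO95 0.51. The value for *Ikzf3* thus depends on single lines in both directions. *Ikzf4* had an r of 0.14 with *Ikzf1* (rho 0.41), and 0.01 without the same pair of lines. For *Ikzf5* the r with *Ikzf1* was 0.09 (rho 0.02), and -0.04 without them.

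*Ikzf2* and *Ikzf4*, the members tied to regulatory T cells, were the pair with the highest r over the 15 lines, 0.75 (rho 0.73). The r of *Ikzf2* with *Ikzf4* was 0.94 over the E2a-/- lines and 0.68 over the DKO lines, where *Ikzf1* with *Ikzf3* was higher (0.82). The r of *Ikzf2* with *Ikzf4* over lines was 0.70 without DKO79.9 and DKO170.2, the lines farthest from the median of *Ikzf2*, so it did not rest on these. *Ikzf3* had an r of 0.47 with *Ikzf2* but a rho of 0.10. *Ikzf4* and *Ikzf5* had an r of -0.49 (rho -0.31), which was -0.21 without SKO95 and DKO79.9.

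**Figure D3:**
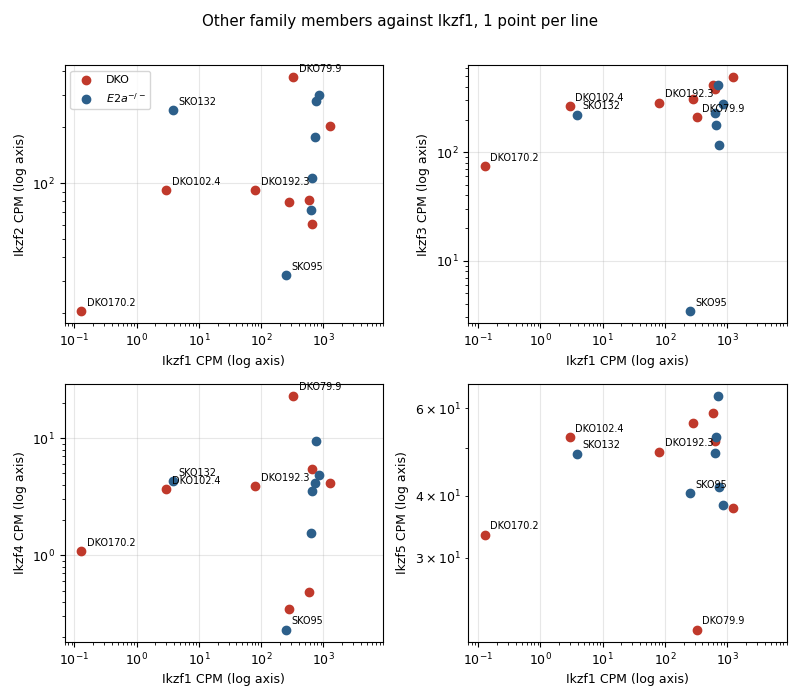
CPM of *Ikzf2*, *Ikzf3*, *Ikzf4* and *Ikzf5* against CPM of *Ikzf1* (log axes), 1 point per line, DKO in red and E2a-/- in blue. Labels mark DKO102.4, DKO170.2, DKO192.3, DKO79.9, SKO132 and SKO95 only. DKO102.4, SKO132 and DKO192.3 lie left of most lines at middle heights, while DKO170.2 is low on both axes for *Ikzf2* and *Ikzf3*.

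The study compared DKO with E2a-/- lines to ask what deletion of *Lef1* during T cell development changes in these leukemias. For this family, limma at an adjusted p under 0.01 called 0 of 5 genes, where 0.0478% of all genes passed (6 of 12545). At an unadjusted p under 0.05 limma also gave 0 of 5, where 10.2% of all genes passed. The edgeR quasi-likelihood test gave 0 of 5 (0.00797% of all genes), the edgeR likelihood ratio test 0 of 5 (0.67%) and DESeq2 0 of 5 (1.41%), each at an adjusted p under 0.01. Each of these also gave 0 of 5 at an unadjusted p under 0.05, where 10.8%, 10.4% and 13.0% of all genes passed. The DKO and E2a-/- values overlapped for each of the 5 members, while 0.175% of all genes had groups that do not overlap. These shares leave a count of 0 among 5 genes close to the background.

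*Ikzf1* averaged 398 ± 426 CPM (SD, n = 8) in DKO and 553 ± 307 CPM (n = 7) in E2a-/- lines, and 7 of the 8 DKO lines were under the E2a-/- median of 658 CPM. The log2 fold change of DKO against E2a-/- was -1.52 (SE 1.56, adjusted p = 0.763 in limma, exact permutation p = 0.351). This estimate turns on single lines, since it was -0.58 without DKO170.2 (adjusted p from 0.445 to 0.945 over all alternatives) and -2.51 without SKO132. On the scale of counts it was -0.47 in edgeR and -0.48 in DESeq2. Low *Ikzf1* occurred in both genotypes, but among the E2a-/- lines only in SKO132, a library that also stands apart in *Lef1* and *Notch1*. The other E2a-/- lines had 252 CPM or more. The difference between the genotypes was smaller than the spread among lines of a genotype.

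*Ikzf3* averaged 305 ± 130.0 CPM (SD, n = 8) in DKO and 207 ± 129.8 CPM (n = 7) in E2a-/- lines, with 6 of 8 DKO lines over the E2a-/- median. Its log2 fold change was 1.08 (SE 0.78, adjusted p = 0.655 in limma, exact permutation p = 0.217), and it was 0.27 without SKO95. *Ikzf2* averaged 125 ± 112 CPM against 173 ± 105 CPM, with 6 of 8 DKO lines under the E2a-/- median. Its log2 fold change was -0.57 (SE 0.57, adjusted p = 0.757 in limma, exact permutation p = 0.370), and it was -0.26 without DKO170.2 and -0.91 without SKO95. Neither gene differed between the genotypes by more than the spread of its lines.

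*Ikzf4* and *Ikzf5* were closest to no difference. *Ikzf4* averaged 5.27 ± 7.44 CPM in DKO and 4.02 ± 2.94 CPM in E2a-/- lines, with a log2 fold change of -0.05 (SE 0.58, adjusted p = 0.986 in limma, exact permutation p = 0.939). Of the 8 DKO lines 6 were under the E2a-/- median of 4.17 CPM, opposite to the order of the means, since DKO79.9 had 23.1 CPM. Its direction depended on the method: it was 0.37 in edgeR, 0.36 in DESeq2 and, in limma without DKO79.9, -0.42. *Ikzf5* averaged 45.0 ± 12.9 CPM in DKO and 47.7 ± 8.73 CPM in E2a-/- lines, with a log2 fold change of -0.12 (SE 0.19, adjusted p = 0.859 in limma, exact permutation p = 0.583). The direction of *Ikzf5* is not settled, since 5 of 8 DKO lines were over the E2a-/- median and the estimate was 0.01 without DKO79.9.

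The low *Ikzf3* of SKO95 came with an absence of reads from a gene on each side of it, though not from every gene nearby. The neighbours named here were chosen after their values were seen. On chromosome 11, *Ikzf3* lies at 98326216 to 98407345 in the table's coordinates. *Mien1*, a small gene that starts at -27.2 kb from *Ikzf3*, had 0 reads in SKO95 (upper limit 0.170 CPM) and 32.8 to 81.6 CPM in the other 14 lines. The lowest other line was 237-fold above the 3 reads taken as the floor in SKO95. *Zpbp2*, on the other side at 86.2 kb, had 0 reads in SKO95 (upper limit 0.170 CPM) and 1.88 to 7.06 CPM in the other 14 lines. Its lowest other line was 13.6-fold above the same floor. SKO95 was thus far under every other line for 3 genes of this stretch, *Mien1*, *Ikzf3* and *Zpbp2*. *Grb7*, an adaptor gene between *Mien1* and *Ikzf3*, was not low in SKO95: it had 16 reads, or 0.737 CPM, against a median of 0.515 CPM and a range of 0 to 3.14 CPM in the other 14 lines.

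The named genes farther out than *Mien1* and *Zpbp2* were not low to this degree. *Ormdl3*, 116 kb from the start of *Ikzf3*, had 31.3 CPM in SKO95, just under the 33.3 to 72.5 CPM of the other 14 lines. *Pgap3*, at -76.2 kb, had 21.8 CPM in SKO95, within the 12.4 to 24.1 CPM of the others. *Erbb2*, a receptor tyrosine kinase gene at -52.4 kb whose listed end meets the start of *Mien1*, went the other way. It had 31.2 CPM in SKO95 (678 reads), against 0 to 8.60 CPM in the other 14 lines. The state of the DNA in this stretch was not measured in these libraries.

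Over a window of 1 Mb on each side, *Ikzf3* had 42 listed neighbours, of which 32 reached a mean of 5 CPM. The median of these neighbours in SKO95 was -0.01 on the log2 scale against their medians over lines, so these neighbours as a whole were not low in that line. The median r of the 42 neighbours with *Ikzf3* over the 15 lines was -0.003.

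The surroundings of *Ikzf1* held fewer expressed genes, 8 within 1 Mb, of which 2 reached a mean of 5 CPM. *Fignl1*, a gene for a DNA repair ATPase that starts 102.43 kb after the start of *Ikzf1*, was expressed in every line, from 28.0 CPM in DKO548 to 206 CPM in DKO241. It had 58.5 CPM in DKO102.4, 115.1 CPM in DKO170.2, 65.0 CPM in DKO192.3 and 132 CPM in SKO132, beside a median of 124.6 CPM over the 15 lines. This gene was thus expressed in the lines with little *Ikzf1*, at a lower level in DKO102.4 and DKO192.3 than in most lines, as it also was in DKO548 and in DKO79.9 (62.0 CPM). *Ddc*, which encodes an amino acid decarboxylase and starts at 129 kb, ran from 0 CPM in DKO713 to 104 CPM in SKO156.6. It had 1 read each in DKO102.4, DKO192.3 and DKO548. Its log2 fold change of DKO against E2a-/- was -3.63, which did not pass the threshold (adjusted p = 0.0915 in limma). DKO548 and DKO713 had 280 and 589 CPM of *Ikzf1*. *Grb10*, an adaptor gene at 246 kb, ran from 0 to 27.8 CPM. Between these lies *1700042O10Rik*, which ran from 0 to 20.4 CPM. The median of *Fignl1* and *Ddc*, on the log2 scale against their medians over lines, ran from -1.67 in DKO548 to 2.80 in SKO156.6. It was -1.16 in DKO102.4, -1.08 in DKO192.3, 0.27 in DKO170.2 and 0.93 in SKO132. It was also under 0 in DKO713 (-0.77), DKO79.9 (-0.72) and SKO95 (-0.24), so its low values were not limited to the lines with little *Ikzf1*. Of the lines under 0, all but SKO95 are DKO lines, while DKO170.2, DKO241 (0.19) and DKOTu3 (0.01) were above 0.

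The neighbours on the other side of *Ikzf1* were weakly expressed. *Gm11998*, at -128 kb, had 0 reads in DKO102.4 and in DKO170.2, 3 reads in DKO192.3 and 1 read in DKO79.9, but 59 reads in SKO132 and up to 3.85 CPM in DKO548. It was therefore at or near 0 in 3 of the 4 lines with the least *Ikzf1*, and not in SKO132. *Zpbp*, at -405 kb, ran from 1.36 to 4.03 CPM and *Spata48*, at -223 kb, from 0.412 to 3.23 CPM. *4930512M02Rik*, at -95.8 kb, ran from 0 to 1.06 CPM. Over the 8 neighbours the median r with *Ikzf1* was 0.12, and 0 of them reached an adjusted p under 0.01 in limma. *Ddc*, *Fignl1*, *Gm11998* and *4930512M02Rik* reached an unadjusted p under 0.05 in limma, each with a negative log2 fold change, beside 10.2% of all genes.

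**Figure D4:**
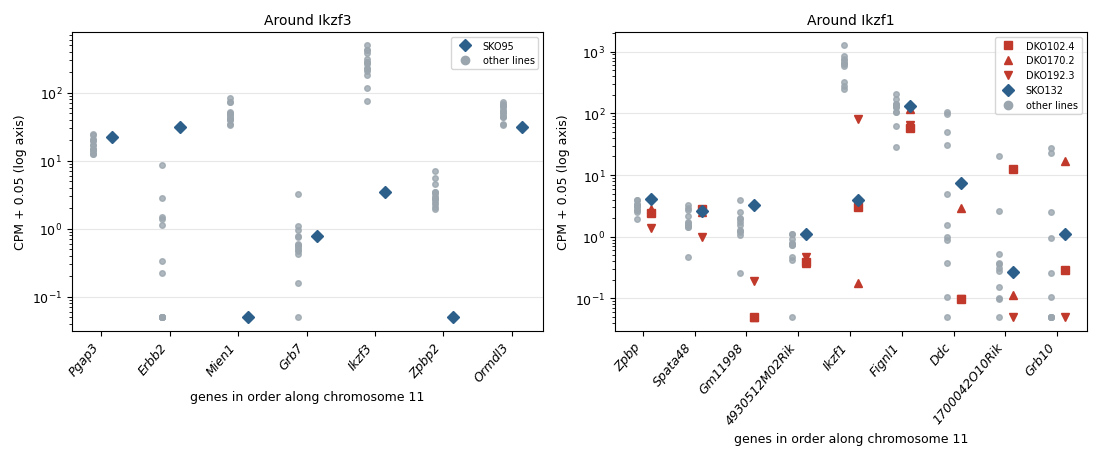
CPM + 0.05 (log axis) of genes in order along chromosome 11 around *Ikzf3* (left, SKO95 against the other 14 lines) and around *Ikzf1* (right, the 4 lines with the least *Ikzf1* against the others). In SKO95, *Mien1* and *Zpbp2* are at 0 reads on either side of *Ikzf3*, while *Fignl1* next to *Ikzf1* is expressed in every line.

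*Ikzf1* and *Ikzf3* were both at their highest in DKO241, and both lie on chromosome 11. In that line the median gene of chromosome 11, taken over the 842 genes that reach 5 CPM on average, was 0.47 higher on the log2 scale than its median over lines. In the other 14 lines this value ran from -0.07 to 0.10. *Ikzf1* in DKO241 was at 213% and *Ikzf3* at 185% of their medians over lines. The part of the whole chromosome in these levels was not tested. Chromosome 11 was not shifted in the lines with low *Ikzf1*, with 0.00 in DKO102.4, DKO170.2 and DKO192.3 and -0.03 in SKO132.

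Genes whose pattern over the 15 lines was most like that of *Ikzf1* were taken from 11228 genes by the r of log2(CPM + 1). The highest were *Sp4*, a zinc finger factor of the Sp family (r = 0.89), *Smchd1*, a chromatin protein of gene silencing (0.86), *Megf9* (0.85), the cell cycle factor *E2f3* (0.85) and *Sipa1l1* (0.85). Each of the 5 was at its lowest in DKO170.2, as 20.6% of the 11228 genes were. *Sp4*, for example, had 7.79 CPM in DKO170.2, against a median of 34.5 CPM. Without DKO102.4 and DKO170.2 the r of *Sp4* with *Ikzf1* was 0.79 and that of *Smchd1* 0.80, while *Sipa1l1* was at 0.62. These values still include SKO132, which had 3.86 CPM of *Ikzf1* and the next to lowest level of both *Sp4* and *Smchd1*. The r without SKO132 as well was not computed. Whether the likeness holds among the lines that express more *Ikzf1* was therefore not tested.

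The lowest r with *Ikzf1* were those of *Eif3g*, a translation initiation factor subunit (-0.90), *Krtcap2* (-0.89), *Tsr2* (-0.88), the tetraspanin gene *Cd81* (-0.87) and the chaperonin subunit gene *Cct5* (-0.87). These genes were at their highest in DKO170.2, except *Cd81*, which peaked at 123 CPM in DKO102.4. *Eif3g* had 248 CPM in DKO170.2 against a median of 162.9 CPM. Among the 11228 genes, 1.43% had an r of at least 0.7 with *Ikzf1* and 1.38% an r of at most -0.7, so the named genes are the ends of a wide spread.

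*Ikzf3* shared its low line with its most alike genes. *Braf*, a kinase gene of the MAP kinase pathway, had an r of 0.96 with *Ikzf3*, with 1.29 CPM in SKO95, 17.9 CPM in DKO170.2 and a median of 53.7 CPM. *Btbd9* followed at 0.94, with 7.46 CPM in SKO95 against a median of 36.4 CPM. *Rdh13* was at 0.93, with 5.99 CPM in SKO95 against a median of 24.7 CPM. Without SKO95 and DKO170.2 these r were 0.61, 0.41 and 0.64, so they rest in large part on that pair of lines. None of these 3 genes is on chromosome 11.

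Genes most like *Ikzf2* were *Ap1b1* (r = 0.84), the lysosomal transporter gene *Atp13a2* (0.83) and *Rhof* (0.83). *Ap1b1* and *Atp13a2* were lowest in DKO170.2, while *Rhof* was lowest in DKO713 and highest in DKO79.9. Without DKO79.9 and DKO170.2 these r were 0.72, 0.75 and 0.81. Genes most like *Ikzf4* were *P4htm* (0.93), *Suox* (0.90) and *Rhof* (0.88). *Suox* encodes sulfite oxidase and starts 39.0 kb from *Ikzf4* on chromosome 10. All were at their highest in DKO79.9, as *Ikzf4* was. Without SKO95 and DKO79.9 their r with *Ikzf4* were 0.85, 0.83 and 0.80. For *Ikzf5* they were *Hnrnph2* (0.90), *Vma21* (0.90) and *Api5* (0.88), each lowest in DKO79.9.

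Genes for the proteins through which Ikaros factors act had reads in all 15 lines. Of 21 listed corepressor and remodeler genes that bind Ikaros proteins, 20 are in the table (*Ctbp2* is not), and an adjusted p under 0.01 was reached by 0 of them in limma, in both edgeR tests and in DESeq2. At an unadjusted p under 0.05, limma gave 1 of 20 genes, *Mta3*, lower in DKO (27.7 to 103 CPM over the lines), where 10.2% of all genes passed, and each other tool also gave 1. The median log2 fold change was 0.00, beside -0.02 over all genes. *Chd4*, the ATPase of the nucleosome remodeling and deacetylase complex, ran from 414 CPM in DKO170.2 to 1075 CPM in SKO163.5. *Rbbp4* ran from 533 to 831 CPM, *Rbbp7* from 345 to 626 CPM, and *Smarca4*, the ATPase of a further remodeler, from 365 to 547 CPM. The summed level of the 20 genes stayed between 5106 and 5857 CPM, but single genes moved far more, and those named next were chosen after their values were seen. *Chd3*, which encodes a relative of *Chd4*, ran from 0.691 CPM in SKO95 to 579 CPM in SKO132. *Gatad2b*, a subunit gene of the same complex, had 5.23 CPM in DKO170.2, against a median of 49.9 CPM.

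Genes known to be held down by Ikaros in lymphocyte precursors were uneven in the lines with little *Ikzf1*, some high and some low. Of 13 listed genes 12 are in the table (*Vpreb1* is not), and the median log2 fold change was 0.26. An adjusted p under 0.01 was reached by 0 of them in limma and in the edgeR quasi-likelihood test, and by 2, *Cdkn1a* and *Lef1*, in the edgeR likelihood ratio test (0.67% of all genes) and in DESeq2 (1.41%). Unadjusted p under 0.05 was reached in limma by 1 higher and 1 lower in DKO, and in each other tool also by 2 of 12, beside 10.2% (limma) to 13.0% (DESeq2) of all genes. Their sum was 1028 CPM in SKO132, the lowest of the 15 lines, 3395 CPM in DKO170.2, 4932 CPM in DKO192.3 and 5141 CPM in DKO102.4, beside a median of 4669 CPM. *Notch1* ran from 31.3 CPM in SKO132 to 2266 CPM in SKO115.2, and *Dntt*, the terminal transferase of antigen receptor joining, from 107 CPM in DKO79.9 to 1995 CPM in SKO95. *Il2ra*, the alpha chain of the interleukin 2 receptor, was highest in DKO102.4, at 1636 CPM, and lowest in SKO132, at 0.827 CPM. *Lef1* is the gene that the DKO genotype targets. *Cdkn1a*, a cell cycle inhibitor gene named here for its p, had a log2 fold change of 2.41 (SE 0.41, adjusted p = 0.026 in limma). Its highest levels were 201 CPM in DKO102.4, 166 CPM in DKO192.3 and 135 CPM in DKO170.2, against 58.5 to 92.7 CPM in the other DKO lines and 30.005 CPM in SKO132, within the 3.13 to 40.4 CPM of the E2a-/- lines. *Myc*, also looked at after its values were seen, had a median of 351 CPM and was highest in DKO102.4, at 565 CPM. It had 445 CPM in DKO170.2, 426 CPM in DKO192.3 and 334 CPM in SKO132. DKOTu3 and SKO137.1, which had 648 and 635 CPM of *Ikzf1*, had 460 and 435 CPM of *Myc*. Over the 15 lines the r with *Ikzf1* was -0.42 for *Cdkn1a* (rho -0.475) and -0.45 for *Myc* (rho -0.21). These were the lowest r of the list. Over the 11 genes of it that were abundant enough to be compared, the median r with *Ikzf1* was 0.23, and the highest was 0.58 for *Notch3*. The r of *Cdkn1a* also takes in its difference between the genotypes.

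Most genes whose products modify or degrade Ikaros proteins varied little. Of 13 listed kinases, phosphatase subunits and ubiquitin ligase parts, 12 are in the table (*Btk* is not), with a median log2 fold change of -0.04. An adjusted p under 0.01 was reached by 0 of them in limma and in both edgeR tests, and by 1, the kinase gene *Syk*, in DESeq2 (1.41% of all genes), where it was higher in DKO. At an unadjusted p under 0.05 limma gave 1 higher and 1 lower in DKO, the edgeR quasi-likelihood test 2, the likelihood ratio test 1 and DESeq2 2 of 12, beside 10.2%, 10.8%, 10.4% and 13.0% of all genes. *Syk* was uneven among the DKO lines, at 0 reads in 3 of 8 and at 20.2 to 336 CPM in the others, and at 0 to 3.37 CPM in the E2a-/- lines. *Ddb1*, of the ubiquitin ligase that thalidomide analogs direct to Ikaros and Aiolos in human cells, ran from 651 to 961 CPM. The phosphatase genes *Ppp1ca*, *Ppp1cb* and *Ppp1cc* had medians of 461, 305 and 276 CPM. Their summed level with the rest of the list ran from 2523 CPM in DKO79.9 to 3080 CPM in DKOTu3.

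Other zinc finger regulators of T cell development gave 11 of 15 genes in the table, with a median log2 fold change of -0.09. An adjusted p under 0.01 was reached by 0 of them in limma, in both edgeR tests and in DESeq2. At an unadjusted p under 0.05, limma gave 1 of 11 (lower in DKO), the edgeR quasi-likelihood test 1, and the edgeR likelihood ratio test and DESeq2 4 each, beside 10.2%, 10.8%, 10.4% and 13.0% of all genes. *Bcl11b*, needed for T cell commitment, ran from 248 to 552 CPM, *Patz1* from 127 to 452 CPM, *Gata3* from 91.9 to 343 CPM and *Zfpm1* from 33.1 to 157.1 CPM. These 4 have the highest means of the list, and other genes of it, named after their values were seen, were weaker. *Zbtb16* ran from 0 to 70.7 CPM (median 9.19), *Klf2* from 0.0467 to 77.7 CPM (median 0.415), *Gfi1b* from 0 to 25.02 CPM (median 1.37) and *Zbtb7b* from 0 to 16.3 CPM (median 0.159). The 17 T-lineage genes had a median log2 fold change of 0.06, with 0 past the threshold in limma and in the edgeR quasi-likelihood test, and 1, *Cd2*, lower in DKO in the edgeR likelihood ratio test (0.67% of all genes) and in DESeq2 (1.41%). In limma 2 were higher and 1 lower in DKO at an unadjusted p under 0.05, and each other tool also gave 3 of 17, beside 10.2% (limma) to 13.0% (DESeq2) of all genes.

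Markers of other cell types were weak or uneven, and 0 of their genes reached an adjusted p under 0.01 in limma, in both edgeR tests or in DESeq2. At an unadjusted p under 0.05 limma gave 0 of the 14 genes, and the edgeR tests and DESeq2 gave 1 each, the NK gene *Klrb1c*, beside 10.2% (limma) to 13.0% (DESeq2) of all genes. Regulatory T cell markers, of interest for Helios and Eos, gave 4 of 5 genes in the table, without the defining factor *Foxp3*. Their sum ran from 12.7 CPM in SKO132 to 1722 CPM in DKO102.4, with a median log2 fold change of 0.40. *Il2ra* had the highest mean and ran from 0.827 to 1636 CPM, *Ctla4* from 0 to 78.7 CPM, *Tnfrsf18* from 4.54 to 20.2 CPM and *Tnfrsf4* from 1.32 to 4.82 CPM. In DKO79.9, the line highest in *Ikzf2* and *Ikzf4*, this sum was 325 CPM, the median of the lines, of which 291 CPM was *Il2ra*. *Tnfrsf4* was highest in SKO115.2, SKO163.5 and DKO79.9 (4.82, 3.76 and 3.71 CPM), which are the lines highest in *Ikzf2* as well. The other genes of the list did not share this order. *Tnfrsf18* was highest in DKO79.9, but next in SKO95 (16.3 CPM) and DKO170.2 (14.6 CPM), the lines with the least *Ikzf2*. *Il2ra* had only 8.65 CPM in SKO115.2 and 51.8 CPM in SKO163.5. *Ctla4* had 78.7 CPM in SKO115.2, 25.4 CPM in SKO163.5 and 10.5 CPM in DKO79.9, against a median of 24.4 CPM. B-lineage markers gave 1 of 7 genes, *Blnk* (0.142 to 6.54 CPM; log2 fold change 0.37), with *Cd79a* and *Pax5* not listed. The part of these cell types in the family's levels was not tested.

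Myeloid markers gave 2 of 8 genes, *Itgam* (2.49 to 12.9 CPM) and *Lyz2* (0 to 3.32 CPM), with a median log2 fold change of 0.07. Erythroid and megakaryocyte markers gave 2 of 7, with a median of -0.13. *Gata1*, a zinc finger factor of red cells, had 41.6 CPM in DKO79.9, its highest line as for *Ikzf4*. *Itga2b* ran from 0.237 to 1.91 CPM and had 0.412 CPM in DKO79.9, under its median of 0.701 CPM. NK and innate lymphoid markers gave 1 of 6, *Klrb1c* (0 to 1.37 CPM; log2 fold change 0.40). Stroma and epithelium markers gave 4 of 6, with a median of -0.10 and a sum from 146 CPM in DKOTu3 to 1189.9 CPM in DKO192.3. Their genes were *Col1a2* (0 to 947 CPM), *Pdgfrb* (1.91 to 411 CPM), *Pecam1* (44.9 to 157.4 CPM) and *Epcam* (0 to 8.24 CPM). In the lines with little *Ikzf1* the stroma sum was 433 CPM in DKO170.2, 465 CPM in DKO102.4, 234 CPM in SKO132 and the highest value in DKO192.3. The r with *Ikzf1* was -0.22 for *Col1a2*, 0.06 for *Pdgfrb*, 0.06 for *Epcam* and 0.60 (rho 0.69) for *Pecam1*. *Pecam1* was lowest in DKO170.2 and next to lowest in SKO132, at 50.7 CPM. It was at its median of 84.4 CPM in DKO102.4 and at 75.2 CPM in DKO192.3. The part of these cells was not tested.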

How the data were processed

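RNA of 15 lines was sequenced, 1 library each. The deposited values are in CPM (cpm): the authors trimmed reads with Trimmomatic 0.33, aligned them with TopHat2 2.1.0 to mm10, counted them with HTSeq 0.6.1 on Ensembl genes and scaled them with edgeR. How genes were chosen for the table is not stated. Dividing each value by the smallest nonzero value of the same line gave a whole number within 0.02, and these reads were used for intervals and count tests. Of the 12545 genes, 12172 have a symbol in GENCODE M21. Only 190 listed starts lie within 1 bp of GRCm38, so positions are the table's own. Its width column is not an exon length, so lengths are merged GENCODE exons.

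limma 3.58.1 (R 4.3.3) was fitted to log2(CPM + 1) of all 12545 genes with a variance trend, 2-sided, with Benjamini-Hochberg adjustment over all genes and a threshold of 0.01. Exact 2-sided permutation tests over the 6435 assignments of 8 and 7 lines were run for each member. Genotypes come from the labels, which name no batch and no pairing, and no line was left out. Alternatives were a pseudocount of 0.1 or 2, a minimum mean of 1 CPM, TMM and median-of-ratios scaling, no trend, edgeR 4.0.16, DESeq2 1.42.0, SKO156.6 and SKO186.5 averaged, and each line left out. Leaving out SKO132 and DKO79.9 together, and other transcript lengths, were chosen after seeing the data. Scripts ran in Python 3.11.15 (numpy 2.4.6, scipy 1.17.1, pandas 2.3.3) and were tested on simulated data.

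The members and lists were chosen with earlier results of these data known. Named genes are the 5 members, the neighbours of Ikzf1 within 1 Mb and list genes that pass the threshold. Up to 4 genes of each list with the highest mean CPM are named too. Named by r are the 5 genes with the highest and the 5 with the lowest r with Ikzf1, and the 3 with the highest r with each other member. These were taken among genes that average 1 CPM or more and have 3 or more reads in at least 10 lines. Genes outside this rule, among them the neighbours of Ikzf3, Pstk, Mta3, Cdkn1a, Syk and Cd2, and further list genes, were named after their values were seen. The lists are T-lineage identity, B-lineage, myeloid, erythroid and megakaryocyte, NK and innate lymphoid, regulatory T cell, stroma and epithelium, corepressors and remodelers that bind Ikaros proteins, genes known to be held down by Ikaros, enzymes that act on Ikaros proteins, and other zinc finger regulators.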

Additional observations from a re-analysis of the deposited data

Results flagged for a closer look

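Ikzf4 in DKO79.9 stood far from the other DKO lines. It was 23.1 CPM, against 0.345 to 5.47 CPM in the other 7 DKO lines, and its gap to the nearest of them was 0.775 of the whole range of the group. On log2(CPM + 1), the scale of the fit, this gap was 0.456 of the range and not flagged. DKO79.9 is the line with the fewest reads, and the Ikzf4 value rests on 112 reads.

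On log2(CPM + 1), a scale added for this after the data were seen, low values were flagged instead. Ikzf1 in SKO132, at 3.86 CPM against 252 to 847 CPM in the other E2a-/- lines, had a gap of 0.765 of the range. Ikzf3 in SKO95, at 3.41 CPM against 118 to 418 CPM in the other E2a-/- lines, had a gap of 0.723. Ikzf3 in DKO170.2, at 74.5 CPM against 209.6 to 492 CPM in the other DKO lines, had a gap of 0.546. The 5 members in each genotype make 10 groups, of which 1 held such a value on CPM and 3 on log2(CPM + 1). The cut used is set so that chance passes it in about 1 of 20 groups. The counts cannot be set against that rate, since the family was chosen with the low Ikzf1 of single lines known. They are a description only, and the flag of Ikzf1 in SKO132 restates that choice. Ikzf1 in DKO102.4 and DKO170.2, both low, was not flagged, as the gap is measured to the nearest line. The cause was not tested.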

How the results depend on the processing

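The count of members past the adjusted threshold was 0 of 5 under each of the 26 alternatives, and the log2 fold changes of Ikzf1, Ikzf2 and Ikzf3 kept their direction in all 26. They ran from -2.74 to -0.47 for Ikzf1, from -0.91 to -0.26 for Ikzf2 and from 0.27 to 1.37 for Ikzf3. Without SKO132 and DKO79.9, Ikzf1 was at -2.74. Leaving out each line in turn gave -2.51 to -0.58 for Ikzf1. Ikzf4 turned to 0.37 in both edgeR tests and 0.36 in DESeq2, and ran from -0.42 to 0.18 when each line was left out. Ikzf5 turned to 0.022 without SKO132 and DKO79.9, and ran from -0.19 to 0.015 when each line was left out. The cause was not tested.

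The r of Ikzf2 with Ikzf1 was 0.60 in DKO and -0.13 in E2a-/- lines alone, and 0.029 to 0.55 when each line was left out. That of Ikzf3 was 0.82 in DKO and 0.046 in E2a-/- lines alone, with a rho of 0.40, and 0.050 to 0.51 when each line was left out. That of Ikzf4 was 0.040 in E2a-/- lines alone, with a rho of 0.41, and -0.0060 to 0.21 when each line was left out. That of Ikzf5 was -0.024 in E2a-/- lines alone, and -0.13 to 0.23 when each line was left out. The cause was not tested. Of 10 groups of a member in a genotype, 1 held a value far from the other lines on CPM and 3 on log2(CPM + 1), a scale added after the data were seen, and Ikzf4 in DKO79.9 was such a value on CPM only. The highest and lowest level of each member stayed within its counting interval under TMM and median-of-ratios scaling. With 1 library per line, differences between lines cannot be told apart from differences between libraries, and Ikzf1 in DKO170.2 and Ikzf4 in several lines rest on under 20 reads.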
